A study of Mus musculus with 5 samples.

Results

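The nuclei described here are pericytes and other mural nuclei of the mouse brain, found in 5 single-nucleus RNA-seq libraries. A nucleus was a member when it held at least 3 summed unique molecular identifiers (UMIs, one per captured transcript) of Atp13a5, Pdgfrb, Abcc9, Vtn, Kcnj8, Notch3 and Ebf1, with at least 1 from Atp13a5, Abcc9 or Vtn. Members had at most 1 UMI of the fibroblast genes Slc6a13, Dcn and Slc47a1, at most 1 of the endothelial genes Cldn5, Flt1 and Mecom, and at most 3 of the microglial genes P2ry12, Siglech and Gpr34. Members were thus chosen by the measured UMIs of these 16 genes. In all, 549 of 9505 kept nuclei met this rule, of 9748 deposited. Each library came from 1 mouse. The 2 R241E mice were Tmem119-creERT2-cGaswt/R241E, with 1 Cgas allele that carries the R241E substitution, and the 3 WT mice were Tmem119-creERT2-cGaswt/wt. All 5 carried the driver by their titles. The study's methods describe tamoxifen injected into young adult mice with the R241E allele. They do not separately state age or tamoxifen for the WT mice. R241E lies in the surface by which the DNA sensor cGAS is held inactive on nucleosomes, and the driver acts mainly in microglia and brain macrophages, so mural cells are not its intended target. The labels call every library microglia and the tissue hippocampus, whereas the protocol names brain. Nuclei were sorted for DAPI and against NeuN and Olig2, so the mural nuclei are those that this enrichment for microglia left in.

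Pericytes sit on the outer wall of capillaries, inside the basement membrane that they share with endothelial cells. Endothelial PDGF-B acting on PDGFRβ recruits and keeps them, and NOTCH3 maintains mural cells. Brain pericytes carry an ATP-sensitive potassium channel made of the pore Kir6.1 (Kcnj8) and the sulfonylurea receptor SUR2 (Abcc9), and they respond to vasoactive signals through cyclic nucleotides and calcium. Vascular smooth muscle cells, the other mural type, wrap arterioles and arteries and hold smooth muscle actin, transgelin and smooth muscle myosin.

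The label held for most members and failed for a small group. Of the 549 members, 492 had at most 4 summed UMIs of the astrocyte-enriched genes Slc1a2, Gabrb1, Luzp2, Ptprz1 and Rorb, and 416 of these had none. The other 57, called astrocyte-gene nuclei here, had 5 or more, and 37 of them had 50 or more. They sat at the edge of the rule. Of the 49 members with 3 or 4 marker UMIs, 41 were astrocyte-gene nuclei, compared with 6 of the 338 members with 20 or more. There were 23 and 13 of them in R241E 1 and R241E 2 and 7, 3 and 11 in WT 1, WT 2 and WT 3. Their median UMI count was 4449 to 8974 by library, against 1302 to 2065 in the other members. Atp13a5 was detected in 54 of the 57 and Pdgfrb in 36, but Ebf1 only in 7, Abcc9 in 6 and Rgs5 in 5. Slc1a2, the main glial glutamate transporter gene, had a median of 12 UMIs in them, and the glypican gene Gpc5 had a median of 50. The 5 astrocyte genes and the limit of 5 UMIs were chosen after these values were seen. The astrocyte-gene nuclei made up 10.4% of the members and 28.2% of their UMIs, and results that rest on them are given with and without them. The remaining 492 are called astrocyte-gene-poor members, and 483 of these had at least 3 of the 7 markers.

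**Figure D1:**
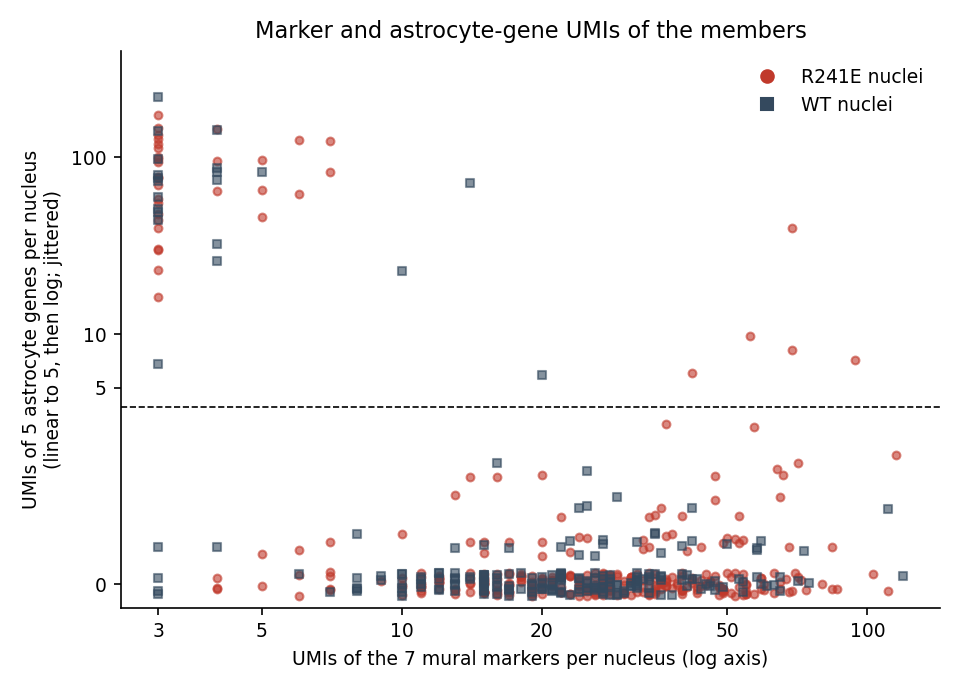
Each point is 1 of the 549 members, by its UMIs of the 7 mural markers (log axis) and of the 5 astrocyte genes (linear to 5, then log, with jitter), with circles for R241E and squares for WT. The 57 nuclei above the dashed line lie mostly at 3 or 4 marker UMIs in both genotypes, and the other 492 lie below it at up to 119 marker UMIs.

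By marker UMIs, most of the other members lay well above the threshold. Members had a median of 24 marker UMIs. Exactly 3 were held by 36 members, 4 by 13, and 5 or more by 500, while 50 nuclei with 2 marker UMIs met the other conditions. A further 73 nuclei had 3 or more marker UMIs but none of Atp13a5, Abcc9 or Vtn. Of nuclei with enough marker UMIs, 123 were kept out by fibroblast genes, 84 by endothelial genes and 19 by microglial genes. More members sat at these limits, with 94 at 1 fibroblast-gene UMI and 130 at 1 endothelial-gene UMI. A further 28 and 41 nuclei had 2 such UMIs and met the other conditions. Libraries shared 13 cell barcodes in pairs, and 0 of these were members. WT 1 was the thinnest library, with 38 members and 91994 member UMIs, against 454254 in R241E 1. It correlated least with the others (r of log CPM across genes 0.744 to 0.799, against 0.816 to 0.898 among the other 4). Its 7 neuronal marker genes summed to 2033 CPM (each sum of counts scaled to one common total) in the members, against 378 to 719 in the other libraries, and to 517 without its astrocyte-gene nuclei.

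The 7 marker genes chose the members, so their levels are a description without a test. Counts were summed over the members of a library and expressed as CPM. Atp13a5, a P-type ATPase gene and a selective marker of brain pericytes, stood at 4152 and 4521 CPM in R241E and 3576, 4436 and 4429 CPM in WT. The genotypes overlapped, and each library was 44.4-fold to 112-fold above the other kept nuclei of the same library (5 CPM added to both). Pdgfrb averaged 1881 ± 288 CPM (SD, n = 5 libraries, as for each mean below). Vtn, encoding the adhesive protein vitronectin, averaged 2105 ± 577 CPM. Ebf1, a transcription factor gene of mural cells and other lineages, averaged 2783 ± 385 CPM and was also high in endothelial-gated nuclei at 2133 CPM. Notch3 averaged 652 ± 58.4 CPM. The 2 potassium channel genes are neighbours in RefSeq (GRCm38.p6, the assembly of mm10), with Kcnj8 at chr6:142564837-142571614 and Abcc9 at chr6:142587862-142702766. Abcc9 averaged 800.3 ± 135 CPM. Kcnj8 stood at 493 and 657 CPM in R241E and 391, 367 and 442 CPM in WT, and it was the one marker of the 7 whose genotypes did not overlap in all members. Among the astrocyte-gene-poor members the levels were higher, with Atp13a5 at 5683 ± 172 CPM and Pdgfrb at 2454 and 2878 CPM in R241E and 2419, 2406 and 2445 CPM in WT. There Pdgfrb did not overlap either, although R241E 1 lay within 10 CPM of WT 3.

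Beyond the rule, a set of genes marked the members in every library. At a mean of 50 CPM or more, 220 of 3982 genes (5.52%) were at least 4-fold above other kept nuclei in all 5 libraries. These ratios come from the same nuclei and contrast that the rule used. The highest lowest-library ratio belonged to Slc38a11, an amino acid transporter gene, at 44.4-fold to 91.9-fold. Rgs5, a regulator of G-protein signalling and a classical pericyte marker, stood at 616 and 678 CPM in R241E and 369.6, 611 and 532 CPM in WT and was 30.6-fold to 47.7-fold above other kept nuclei. Its R241E libraries were both above all WT libraries, narrowly over WT 2. The next were Carmn, a long non-coding RNA of the smooth muscle lineage (29.3-fold to 63.6-fold), Tbx3os1 (27.9-fold to 68.0-fold), the myosin light chain gene Myl9 (20.5-fold to 26.4-fold), Ndufa4l2 (20.2-fold to 29.2-fold) and Cspg4, which encodes the NG2 proteoglycan (19.9-fold to 30.0-fold). Igfbp7 (19.4-fold to 33.7-fold), the gap junction gene Gjc1 (19.4-fold to 36.5-fold), the cation channel gene Trpc4 (18.9-fold to 33.7-fold), Ddit4l (18.3-fold to 25.5-fold) and the GTPase-activating gene Arhgap42 (18.1-fold to 36.8-fold) followed. The calcium-activated chloride channel gene Ano1 (18.0-fold to 39.3-fold) and the cyclic AMP phosphodiesterase gene Pde8b (17.8-fold to 29.8-fold) ended this group. Pde8b varied little between libraries, at 3315 ± 98.4 CPM.

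Further pericyte markers gave a like picture. All 16 were above other kept nuclei in every library, and 13 were at least 4-fold above them in each. Slc6a20a, an imino acid transporter gene, stood at 1171 and 1450.3 CPM in R241E and 1652, 1531 and 1666 CPM in WT, so that both R241E libraries were below all WT libraries. It was also present in fibroblast-gated nuclei at 717 CPM. P2ry14, which encodes a receptor for UDP-sugars, averaged 694 ± 186 CPM, the ADP-ribosyltransferase gene Art3 369 ± 43.9 CPM, and Higd1b, a hypoxia-inducible domain family gene, 189 ± 45.7 CPM. Tbx18, a transcription factor gene of mural cells, averaged 104 ± 22.8 CPM and was higher in fibroblast-gated nuclei at 390.4 CPM.

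Contractile smooth muscle genes were close to 0 in the members. The rule limits what this can show, because it asks for at least 1 UMI of Atp13a5, Abcc9 or Vtn. It left out 73 nuclei with 3 or more marker UMIs but none of these genes, and their smooth muscle genes were not examined. The values below therefore describe the members and not how common smooth muscle nuclei were in the libraries. Over all 549 members there were 20 UMIs of Acta2, 11 of Tagln, 41 of Myh11, 11 of Lmod1 and 0 of Cnn1. Acta2, the smooth muscle actin gene, stood at 35.2 and 10.4 CPM in R241E and 10.9, 0 and 0 CPM in WT, and 16 of its 20 UMIs came from R241E 1. Between 90.6% and 92.2% of the members of each library had no UMI of these 5 genes. Genes of the contractile machinery that are less restricted were present, with caldesmon (Cald1) at 1457 ± 184 CPM, myosin light chain kinase (Mylk) at 219 ± 20.6 CPM, Myl9 at 191 ± 22.5 CPM and tropomyosin 1 (Tpm1) at 159 ± 32.2 CPM. With each nucleus thinned to 1000 UMIs, 3 of 454 members had at least 2 UMIs of the 5 genes, and 95 members below that depth were left out. In the same thinning, 0 of 421 fibroblast-gated and 0 of 4742 microglia-gated nuclei did. The thinned shares of members were 0.613% and 0% in R241E and 2.94%, 0% and 1.19% in WT. At full depth they were 1.76% and 1.81% in R241E and 2.63%, 4.76% and 0.893% in WT. After thinning, the difference of -1.07 percentage points lay within the spread of the libraries (exact permutation test over libraries, two-sided p = 0.5) and was -0.288 without WT 1 and 0.371 when members had at most 1 microglial UMI. At 3 nuclei, a genotype difference in this share was not detectable.

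**Figure D2:**
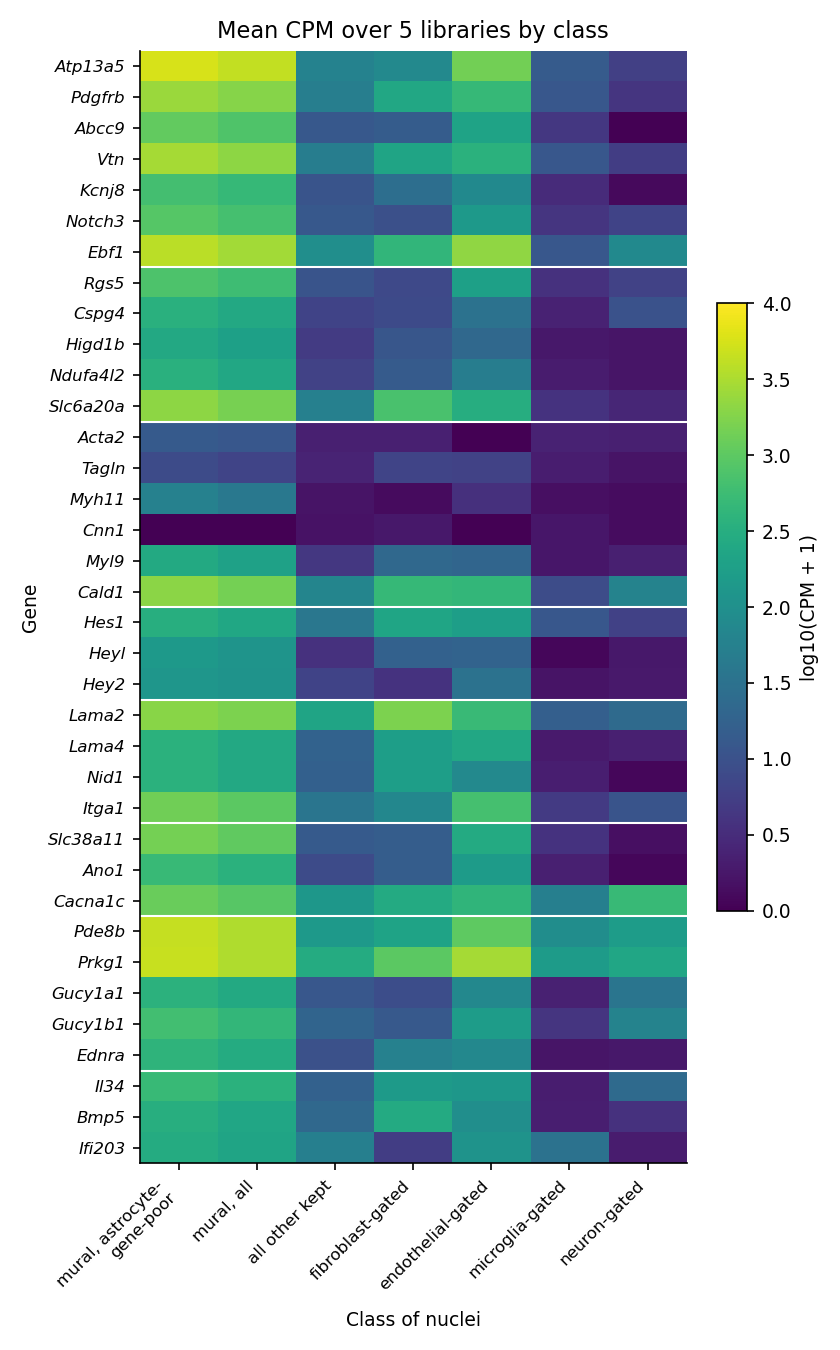
Colour gives log10(CPM + 1) of the mean over 5 libraries, with genes in rows and classes of nuclei in columns, and white lines between blocks of rule markers, other pericyte markers, smooth muscle genes, Notch targets, matrix genes, channels, vasoactive signalling, and secreted or interferon genes. Acta2, Tagln and Cnn1 are dark in the mural columns while Cald1 and Myl9 are not, and Ebf1 and Prkg1 are also bright in endothelial-gated nuclei.

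Ligands and receptors of the capillary wall lay in different classes. Pdgfb, the ligand of PDGFRβ, had 3 UMIs in all members and averaged 143 CPM in endothelial-gated and 136 CPM in microglia-gated nuclei. Pdgfra, the related receptor gene of fibroblasts and oligodendrocyte precursors, averaged 21.5 ± 21.9 CPM against 912 CPM in fibroblast-gated nuclei. Pdgfd averaged 112 ± 93.9 CPM in all members, but only 11 of its 107 UMIs lay in the astrocyte-gene-poor members. Angpt1, the ligand of the endothelial receptor TIE2, stood at 79.3 and 191 CPM in R241E and 10.9, 201 and 21.3 CPM in WT, a spread nearly as large as its mean. Tek, which encodes TIE2, averaged 24.3 ± 24.7 CPM against 440.0 CPM in endothelial-gated nuclei.

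Notch and BMP genes were present at moderate levels. Of the Notch targets, Hes1 averaged 237 ± 34.6 CPM, Heyl 116 ± 32.4 CPM against 2.73 CPM in other kept nuclei, and Hey2 112 ± 20.7 CPM. The receptor gene Notch1 averaged 143 ± 33.3 CPM. The coactivator gene Maml2 averaged 935 ± 239 CPM but was only 0.991-fold to 1.80-fold the level of other kept nuclei. Bmp5, a ligand gene, averaged 229 ± 16.8 CPM and was at least 5-fold above other kept nuclei in every library. The BMP receptor gene Bmpr1a averaged 314 ± 62.9 CPM, Bmpr2 136 ± 24.0 CPM, which was below other kept nuclei in every library, and the shared signal mediator gene Smad4 123 ± 26.2 CPM.

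Matrix, channel and vasoactive genes made up much of the remaining profile. Of 24 basement membrane genes, 16 were above other kept nuclei in every library. Lama2, the laminin α2 gene, averaged 1608 ± 231 CPM, close to the 1622 CPM of fibroblast-gated nuclei, whereas Lama1 averaged 14.2 ± 6.09 CPM against 879.8 CPM there. The laminin γ1 gene Lamc1 averaged 419 ± 82.8 CPM and the collagen-binding integrin gene Itga1 998 ± 184 CPM. The secreted matricellular gene Sparcl1 averaged 658 ± 209.7 CPM, and 442 ± 104 CPM without the astrocyte-gene nuclei. Cacna1c, the pore of the L-type calcium channel, averaged 902 ± 143 CPM. Prkg1, the cyclic GMP-dependent kinase gene, averaged 3329 ± 485 CPM, the cyclic AMP phosphodiesterase gene Pde4d 1929.8 ± 242 CPM and the guanylyl cyclase gene Gucy1a2 1047 ± 81.7 CPM. Gucy1a1 and Gucy1b1, which encode subunits of the nitric oxide receptor, were among the steadiest, at 268 ± 14.1 CPM and 443 ± 26.3 CPM. The endothelin receptor gene Ednra averaged 287 ± 28.6 CPM, and the angiotensin receptor gene Agtr1a had 0 UMIs. Il34, a ligand of the microglial receptor CSF1R, averaged 364 ± 46.6 CPM, against 1.08 CPM in microglia-gated nuclei. Nfkb1 averaged 179 ± 27.4 CPM and the chemokine gene Cxcl12 69.4 ± 17.5 CPM.

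The first comparison between genotypes was how common mural nuclei were. Members made up 7.07% of 2403 kept nuclei in R241E 1 and 12.2% of 1357 in R241E 2. In WT they made up 2.48% of 1534, 3.21% of 1965 and 4.99% of 2246. Both R241E libraries were above all WT libraries, with means of 9.65% and 3.56% and exact 95% binomial intervals, for counting error only, from 6.08% to 14.1% in R241E and from 1.76% to 5.97% in WT. The difference of 6.10 percentage points had p = 0.1 (exact permutation test, two-sided), the smallest that 2 against 3 libraries allow, and was 3.52 without R241E 2. Leaving out the astrocyte-gene nuclei, the shares were 6.12% and 11.3% against 2.02%, 3.05% and 4.50% (exact permutation p = 0.1). Other vessel-associated classes also did not overlap between genotypes (exact permutation p = 0.1 each, two-sided). Fibroblast-gated nuclei made up 6.28% and 8.77% in R241E and 1.63%, 2.75% and 3.43% in WT, and endothelial-gated nuclei 2.33% and 2.06% against 0.652%, 0.814% and 0.623%. Microglia-gated nuclei made up 38.2% and 32.2% in R241E and 55.4%, 67.6% and 55.7% in WT. Among nuclei outside the microglial gate, members made up 11.4% and 18.0% in R241E and 5.56%, 9.91% and 11.2% in WT, where R241E 1 and WT 3 nearly met (exact permutation p = 0.2). Without the astrocyte-gene nuclei these shares were 9.90% and 16.6% against 4.53%, 9.43% and 10.1%, so that R241E 1 lay below WT 3 (exact permutation p = 0.3). There were 1.13 and 1.39 mural nuclei per fibroblast-gated nucleus in R241E and 1.52, 1.17 and 1.45 in WT, with overlapping ranges (exact permutation p = 0.5). In a sorted suspension, a higher share of mural nuclei cannot be told apart from a lower share of the other classes or from differences between sorts.

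**Figure D3:**
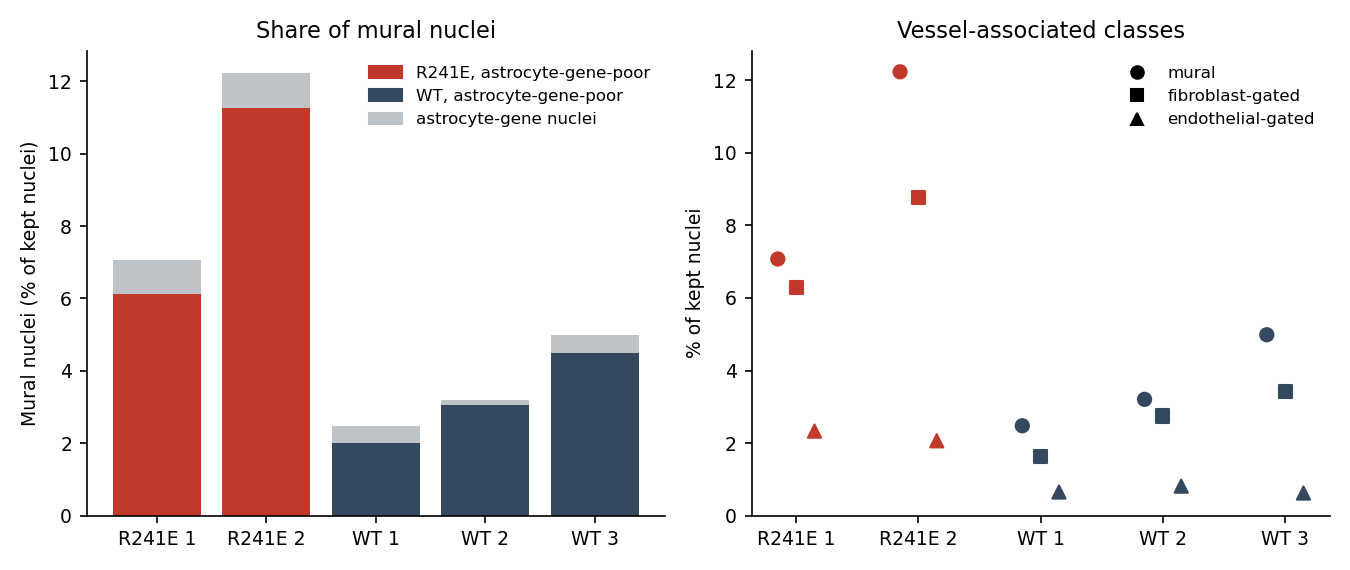
The left panel gives mural nuclei as a percent of kept nuclei per library, with the astrocyte-gene nuclei in grey on top, and the right panel gives mural (circles), fibroblast-gated (squares) and endothelial-gated (triangles) nuclei on the same scale. In each of these classes R241E 1 and R241E 2 (red) lie above WT 1, WT 2 and WT 3 (dark blue), with mural shares of 7.07% and 12.2% against 2.48% to 4.99%.

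The second comparison was of expression within mural nuclei. edgeR's quasi-likelihood test on the summed counts called 0 of 4422 genes (0%) at adjusted p under 0.05. At unadjusted p under 0.05 there were 224 genes (5.07%), 120 higher (2.71%) and 104 lower (2.35%) in R241E. limma-voom and DESeq2 also called 0, with 251 of 4422 and 100 of 18094 genes at unadjusted p under 0.05. Among astrocyte-gene-poor members edgeR called 0 of 3242 genes (0%), with 165 (5.09%) at unadjusted p under 0.05, 84 higher (2.59%) and 81 lower (2.5%). On simulated counts of the same libraries the test recovered 89.2% of 4-fold and 16.5% of 2-fold changes. These changes were placed only in genes with many UMIs, and the simulated spread between libraries was fixed beforehand, not estimated from these data. The recovery therefore does not cover genes with few UMIs. Leaving out R241E 1 gave 20 called genes, R241E 2 gave 5, and WT 1 gave 1 (Erbb4). Wherever an R241E library is left out, the other one is assumed to vary like the WT libraries.

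The genes with the smallest p had most of their UMIs in the astrocyte-gene nuclei. Of the 10 smallest, 8 had at least 50% of their UMIs in those 57 nuclei, as did 12.6% of all genes tested and 32.1% of those at unadjusted p under 0.05. Gria1, an AMPA receptor subunit gene, stood at 374 and 289 CPM in R241E and 152, 144 and 63.9 CPM in WT, with no overlap, but 99.3% of its 299 UMIs came from them. The share was 98.6% for Rgs7, 97.0% for the angiotensinogen gene Agt, 98.0% for the organic anion transporter gene Slco1c1, 94.8% for the synapsin gene Syn2, 88% for the clusterin gene Clu, and 100% for Gm35552 and B230323A14Rik. Their log2 fold changes were 1.55 for Gria1, -1.89 for Rgs7, 2.76 for Agt, -2.17 for Slco1c1, 1.36 for Syn2, 1.30 for Clu, -2.76 for Gm35552 and 3.12 for B230323A14Rik, with edgeR adjusted p of 0.347 to 0.385. The other 2 of the 10 were Nr1d2, described with the clock genes, and Ndufa7. Ndufa7, a complex I subunit gene, stood at 66.0 and 125 CPM in R241E and 10.9, 14.4 and 31.9 CPM in WT (log2 fold change 2.10 ± 0.52 SE, edgeR adjusted p = 0.385). Among the astrocyte-gene-poor members the smallest p were those of Ifitm3, Nr1d2 and Fam118a. Fam118a stood there at 51.7 and 64.0 CPM in R241E and 166, 150.4 and 174 CPM in WT (log2 fold change -1.52 ± 0.38 SE, edgeR adjusted p = 0.166), with R241E below WT in every library.

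**Figure D4:**
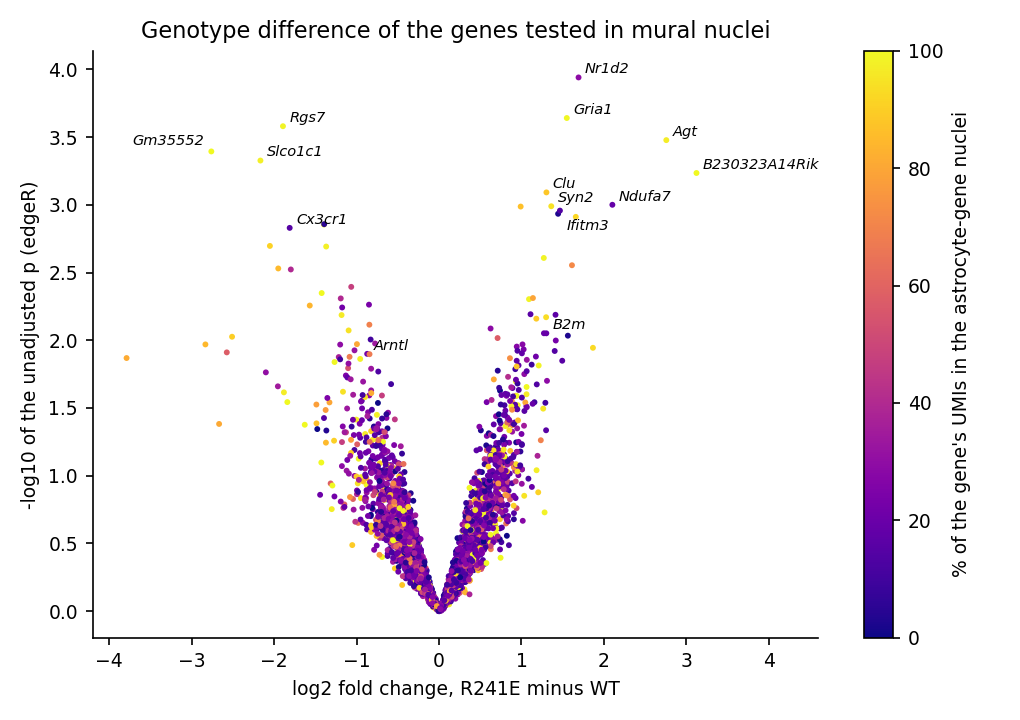
Each point is 1 of 4422 genes, with the log2 fold change (R241E minus WT) on the x axis and -log10 of the unadjusted edgeR p on the y axis, coloured by the percent of its UMIs that lies in the 57 astrocyte-gene nuclei. Of the 10 uppermost genes, 8 are orange to yellow (at least 50%), while Nr1d2 and Ndufa7 are dark.

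With 0 genes called, the lists of the mural programme are described by the median of their log2 fold changes. Over all genes tested this median was -0.01, and 49.1% of genes were above 0 (47.7% among astrocyte-gene-poor members). The other pericyte markers had 14 of 16 genes tested, 11 of them above 0, with a median of 0.17. Smooth muscle genes had 5 of 17 tested and a median of 0.22, and Notch genes 8 of 14 and a median of -0.12. TGF-β and BMP genes had 11 of 22 tested, 9 of them below 0, with a median of -0.31. Medians were 0.11 for basement membrane genes (14 of 24 tested), 0.09 for channels and transporters (14 of 20) and 0.09 for vasoactive signalling (14 of 22). Sparcl1 stood at 938 and 779 CPM in R241E and 565, 388 and 617 CPM in WT (log2 fold change 0.71 ± 0.24 SE), and this was 0.09 ± 0.25 SE without the astrocyte-gene nuclei. Of 18 inflammation and adhesion genes, Il34, Nfkb1 and Cxcl12 were tested, with a median of 0.10. The chemokine genes Ccl2 and Cxcl10 had 6 UMIs each, all from 1 R241E library in each case, and Il6 had 0.

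Many interferon-linked genes separated the genotypes by library. Such genes are switched on by type I interferon through STAT proteins and IRF9, and many encode antiviral proteins. Most lay too low in mural nuclei to be tested, so every gene of each list was counted by whether both R241E libraries were above, or below, all 3 WT libraries. Over all genes with a UMI, 10% were above and 5.73% below, and over genes with 10 or more UMIs, 10.8% and 7.9%. Of 32 interferon genes outside the study's own list, 17 were above, 0 below, and 2 had 0 UMIs. Of the 28 interferon genes that the study used, 10 were above, 0 below, and 4 (Isg20, Oas2, Oas3 and Oasl1) had 0 UMIs. By the study's description, its gene lists came from earlier publications and a public atlas of single-cell data. Of 15 MHC class I and antigen-processing genes, 5 were above and 0 below. In the astrocyte-gene-poor members 15, 10 and 4 genes were above and 0 below, against 10.4% and 5.06% of all genes with a UMI and 10.9% and 7.72% of those with 10 or more. Separation was not limited to these lists. Of 16 other pericyte markers 6 were above and 1 below, and of 24 basement membrane genes 6 and 1. In the astrocyte-gene-poor members these counts were 3 and 1, and 3 and 2. Of 14 Notch genes 1 was above and 1 below, and of 22 TGF-β and BMP genes 2 and 1, in all members.

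The tested interferon genes were each above 0 in the first list, but none passed. Ifitm3, which encodes a membrane protein that blocks virus entry, stood at 200.3 and 348 CPM in R241E and 54.4, 64.7 and 154 CPM in WT, from 91 and 100 UMIs in R241E and 5, 9 and 29 in WT. Both R241E libraries were above all WT libraries, with WT 3 closest. The log2 fold change was 1.44 ± 0.37 SE (edgeR adjusted p = 0.385), and 1.36 ± 0.31 SE without the astrocyte-gene nuclei (adjusted p = 0.122). Ifi203, of the DNA-binding PYHIN family, was above other kept nuclei in every library (2.47-fold to 6.74-fold) and stood at 249 and 316 CPM in R241E and 141, 201 and 165 CPM in WT (log2 fold change 0.71 ± 0.27 SE). Parp12, an antiviral ADP-ribosyltransferase gene, stood at 88.1 and 108 CPM in R241E and 21.7, 57.5 and 53.2 CPM in WT (log2 fold change 1.03 ± 0.39 SE). The genotypes did not overlap in Ifi203 and Parp12, and their edgeR adjusted p were 0.907 and 0.925. Ifi27, a mitochondrial interferon-inducible gene, overlapped, at 129.9 and 111 CPM in R241E and 152, 71.9 and 53.2 CPM in WT. In this list 5 genes were tested, 5 were above 0, 4 had unadjusted p under 0.05, and the median was 1.03. Of the study's list 4 were tested, with a median of 0.39. The ubiquitin ligase gene Rnf213, Chic1 and Stat2 overlapped between genotypes.

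Interferon genes too low to be tested are given as UMIs. Ifit1, which encodes a protein that binds foreign RNA, had 12 and 5 UMIs in R241E and 0, 0 and 0 in WT, and its relative Ifit3 had 18 and 7 UMIs in R241E and 0, 3 and 0 in WT. Isg15, a ubiquitin-like modifier, had 7 and 12 UMIs in R241E and 0, 1 and 1 in WT, and Ifi27l2a had 18 and 8 UMIs in R241E and 0, 0 and 2 in WT. Each was higher in both R241E libraries, which also held more member UMIs than any WT library. For MHC class I, the light chain gene B2m stood at 96.9 and 90.4 CPM in R241E and 43.5, 14.4 and 53.2 CPM in WT (log2 fold change 1.30 ± 0.44 SE, edgeR adjusted p = 0.883) and the heavy chain gene H2-K1 at 83.7 and 73.0 CPM in R241E and 10.9, 43.1 and 47.9 CPM in WT (log2 fold change 1.06 ± 0.45 SE, edgeR adjusted p = 0.94), both without overlap. H2-D1, another heavy chain gene, overlapped at 125 and 90.4 CPM in R241E and 21.7, 57.5 and 101 CPM in WT. The median of these 3 tested genes was 1.06. Of 15 signalling genes upstream of them, 2 were above (Irf9 and Irf1) and 1 below, and the 5 tested had a median of -0.05. Jak1 averaged 163 ± 33.7 CPM, the interferon receptor gene Ifnar2 110.5 ± 31.6 CPM, the kinase gene Tbk1 101 ± 26.8 CPM and Jak2 90.3 ± 22.1 CPM, all with overlap.

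The core of the interferon-stimulated response element lies near the start of several of these genes. The motif searched was GAAA, any 2 bases, GAAA, on either strand, and it was found in the 250 bases upstream of the start in 3.46% of 27025 genes with a RefSeq promoter entry (GRCm38.p6). It was found in 11 of 24 matched genes of the first interferon list, 6 of 19 of the study's list, 3 of 14 of the MHC class I list and 0 of 13 clock genes. The stretches around it are shown for 5 genes whose libraries separated, read 5′ to 3′ on the gene's strand, because this element is the known binding motif of the transcription factor complex that type I interferon activates. Capitals mark the motif, which reads as TTTC, any 2 bases, TTTC when it lies on the other strand.
Ifit1, chr19:34640740-34640858, plus strand: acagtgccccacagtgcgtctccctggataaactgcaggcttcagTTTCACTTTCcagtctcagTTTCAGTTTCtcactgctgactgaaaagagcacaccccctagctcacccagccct
Ifit3, chr19:34583328-34583461, plus strand: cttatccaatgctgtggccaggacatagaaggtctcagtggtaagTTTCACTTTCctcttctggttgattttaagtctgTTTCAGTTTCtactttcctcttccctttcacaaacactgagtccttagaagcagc
Isg15, chr4:156200830-156200941, minus strand: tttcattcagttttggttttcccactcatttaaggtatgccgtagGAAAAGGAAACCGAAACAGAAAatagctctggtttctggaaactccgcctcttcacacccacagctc
Ifi203, chr1:173942493-173942572, minus strand: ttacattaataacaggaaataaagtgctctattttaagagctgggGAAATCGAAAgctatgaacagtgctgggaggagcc
B2m, chr2:122147503-122147602, plus strand: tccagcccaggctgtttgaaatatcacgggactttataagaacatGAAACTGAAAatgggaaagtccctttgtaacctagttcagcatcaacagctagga

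Ifit1 and Ifit3 hold 2 copies each, Isg15 holds 3 that overlap, and Ifi203 and B2m hold 1 each. The motif was also found at Stat2, Rsad2 and Gbp3, whose libraries did not separate, and at Oas3, Ifi205 and Ifi213, which had 0 UMIs. Ifitm3, Parp12 and H2-K1 separated but were not among the genes where it was found. A match describes the letters only, and a gene without one is not thereby outside interferon control.

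**Figure D5:**
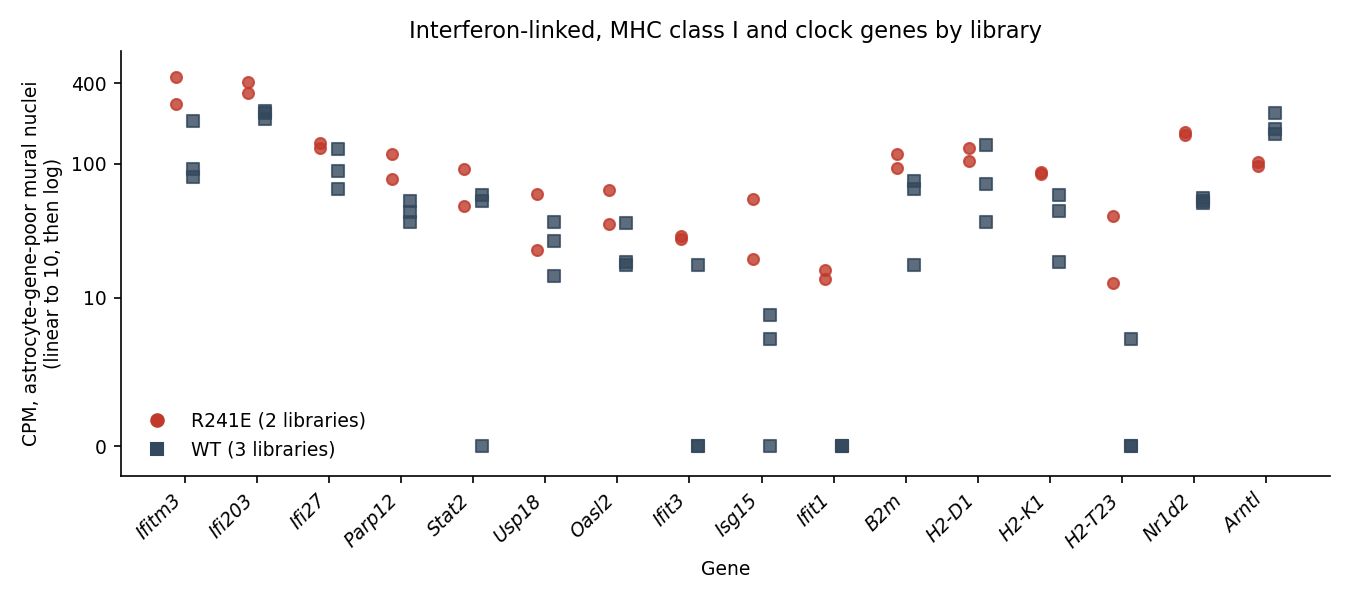
Points give the CPM of each library in the astrocyte-gene-poor members (linear to 10, then log) for interferon-linked, MHC class I and clock genes, with circles for R241E and squares for WT. Both circles lie above all squares for Ifitm3, Ifi203, Ifi27, Parp12, Ifit3, Isg15, Ifit1, B2m, H2-K1, H2-T23 and Nr1d2 and below them for Arntl, and they overlap for Stat2, Usp18, Oasl2 and H2-D1.

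Per nucleus, thinned to 1000 UMIs, 62.0% and 62.4% of members in R241E and 50%, 51.8% and 50% in WT had at least 1 UMI of the study's 28 genes. The difference of 11.6 percentage points had p = 0.1 (exact permutation test, two-sided), the smallest possible. Thinning was by 1 random draw per setting, so these shares also carry the noise of that draw. In members with at most 1 microglial UMI, the thinned shares were 62.8% and 66.4% in R241E and 42.4%, 59.6% and 57.5% in WT. There the exact permutation p was 0.2. Thinned to 1500 UMIs, the shares were 75.6% and 72.7% against 56.5%, 62.2% and 58.1% (exact permutation p = 0.1). Unthinned, the shares were 83.5% and 69.3% against 65.8%, 66.7% and 57.1%. In the astrocyte-gene-poor members the thinned difference was 17.8 percentage points, but WT ranged from 37.0% to 56.6% (exact permutation p = 0.2). In neuron-gated nuclei, taken as background, the thinned shares were 56.8% and 56.1% in R241E and 47.1%, 53.8% and 63.8% in WT, at median depths of 3185.5 to 5457.5 UMIs against 1328 to 2203.5 in the members. The mural shares of both genotypes lay within the range of the neuron shares over all libraries, 47.1% to 63.8%. Those of R241E were above both R241E neuron shares. In microglia-gated nuclei they were 83.7% and 80.0% in R241E and 30%, 33.1% and 32.1% in WT.

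Microglial and free RNA could add such UMIs to any nucleus. The 11 microglial marker genes summed to 293 and 306 CPM in the members of R241E and 326, 597 and 575 CPM in those of WT, against 9463 to 11171 CPM in microglia-gated nuclei. None of the 11 was at 0 in R241E, and 4, 1 and 0 were in WT 1, WT 2 and WT 3. The rule limits 3 of these genes, P2ry12, Siglech and Gpr34. The other 8 summed to 220.1 and 170.4 CPM in R241E and 250.02, 467 and 426 CPM in WT. Of the 11 genes 3 were tested, 1 of them above 0, and 0 were called. Cx3cr1, the microglial fractalkine receptor gene, stood at 17.6 and 34.8 CPM in R241E and 76.1, 108 and 79.8 CPM in WT (log2 fold change -1.81 ± 0.47 SE, edgeR adjusted p = 0.385), with both R241E libraries below all WT libraries. P2ry12, a microglial purinergic receptor gene, stood at 48.4 and 122 CPM in R241E and 65.2, 57.5 and 74.5 CPM in WT (log2 fold change 0.28 ± 0.43 SE, adjusted p = 0.993), with overlap. The first interferon list summed to 1352 and 1600 CPM in mural R241E and 663, 690 and 841 CPM in mural WT. It summed to 4062 and 3832 against 1114, 1162 and 1202 CPM in microglia-gated nuclei, and to 399.7 and 387 against 165, 202 and 265 CPM in neuron-gated nuclei. The part of free RNA in the mural values was not tested.

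Whether the genotype effect differed between mural nuclei and microglia was tested as the genotype effect in mural minus that in microglia-gated nuclei, with library as a block. Of 12729 genes, 7 were above 0 (0.055%) and 29 below (0.228%) at adjusted p under 0.05. From the interferon and MHC class I lists 4 genes were called, all below 0. These were the DNA-binding gene Ifi204 (difference in log2 fold change -3.43 ± 0.64 SE, edgeR adjusted p = 0.00571), Ifitm3 (-2.14 ± 0.45 SE, adjusted p = 0.0164), H2-D1 (-2.33 ± 0.44 SE, adjusted p = 0.00571) and Ifi44 (-8.11 ± 1.63 SE, adjusted p = 0.0115), which had 15 UMIs in mural nuclei. The log2 fold change of Ifitm3 was 3.76 in microglia-gated nuclei. The median difference was -0.38 for the first interferon list (30 tested, 21 below 0), -1.54 for the study's list (25 tested, 22 below 0) and -1.25 for MHC class I (15 tested, 12 below 0), against 0.05 over all genes. Parp12 had log2 fold changes of 1.22 in microglia-gated nuclei and 1.03 in mural nuclei (difference -0.07 ± 0.45 SE). Axl, a receptor tyrosine kinase gene, had the smallest p. It stood at 72.6 and 73.0 CPM in R241E and 119.6, 57.5 and 74.5 CPM in WT in mural nuclei with overlap and had a log2 fold change of 3.77 in microglia-gated nuclei (difference -3.78 ± 0.52 SE, adjusted p = 0.00018). Of the 7 genes above 0, Gria1 and Erbb4 had 2 of 299 and 10 of 774 UMIs in the astrocyte-gene-poor members. With the astrocyte-gene nuclei left out 59 genes were called, 26 of them shared. The count was 72 without R241E 1, 22 without WT 2 and 16 without WT 3. On simulated counts, again with changes only in genes with many UMIs and a fixed spread, this test recovered 45% of 4-fold differences. Against fibroblast-gated nuclei it recovered 39.3%.

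Against fibroblast-gated nuclei, the nearest vessel-associated class, 1 of 6135 genes was above 0 (0.0163%) and 2 were below (0.0326%). Nnat, an imprinted neuronatin gene, had a difference of 2.50 ± 0.39 SE (edgeR adjusted p = 0.00289), Ccdc85a -2.29 ± 0.45 SE (adjusted p = 0.0444) and the histone deacetylase gene Hdac9 -1.92 ± 0.38 SE (adjusted p = 0.0444). Only 77 of the 289 Nnat UMIs and 6 of the 116 Ccdc85a UMIs lay in astrocyte-gene-poor members. With the astrocyte-gene nuclei left out 10 genes were called, of which only Hdac9 was among these 3. The count was 18 without R241E 1, 23 without R241E 2, 1 without WT 2 and 23 without WT 3. No interferon or MHC class I gene was called. The median difference was 0.83 for the first interferon list (16 tested, 3 below 0), 0.38 for the study's list (8 tested, 2 below 0) and 0.21 for MHC class I (7 tested, 2 below 0), against 0.00359 over all genes. Fibroblast-gated log2 fold changes were 0.06 for Ifitm3, 0.04 for Parp12 and 1.46 for B2m.

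Clock genes held the smallest p of the whole comparison. Nr1d2, which encodes the transcriptional repressor REV-ERBβ, stood at 165 and 177 CPM in R241E and 54.4, 50.3 and 53.2 CPM in WT (log2 fold change 1.69 ± 0.33 SE, edgeR adjusted p = 0.347). These levels came from 75 and 51 UMIs in R241E and 5, 7 and 10 in WT. Both R241E libraries were far above all WT libraries. The WT libraries lay within 5 CPM of each other, but at so few UMIs this closeness is no measure of their spread. Without the astrocyte-gene nuclei Nr1d2 stood at 165 and 174 CPM in R241E and 55.4, 53.1 and 50.8 CPM in WT (log2 fold change 1.66 ± 0.40 SE, adjusted p = 0.165). Arntl, which encodes the clock activator BMAL1 and is repressed by REV-ERB proteins, stood at 103 and 80.0 CPM in R241E and 196, 144 and 176 CPM in WT (log2 fold change -0.87 ± 0.31 SE, adjusted p = 0.883), with both R241E libraries below all WT libraries. Clock averaged 168 ± 22.6 CPM and Npas2 134 ± 32.3 CPM, with overlap. Of 14 clock genes found, 3 were above (Nr1d1, Nr1d2 and Ciart, the last with 3 UMIs) and 1 below, against 10% and 5.73% of all genes with a UMI. In fibroblast-gated nuclei the change in Nr1d2 was 1.51 ± 0.29 SE on the log2 scale (adjusted p = 0.0867 in edgeR), and in microglia-gated nuclei 0.02 ± 0.23 SE. The mural minus microglial difference was 1.81 ± 0.42 SE (adjusted p = 0.0485) and the mural minus fibroblast difference 0.21 ± 0.49 SE (adjusted p = 1). The time of day at which each brain was taken is not given in the sources used here.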

How the data were processed

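Nuclei of 5 mice were sequenced with the 10x 3′ v3.1 kit, and the submitters' processing notes name Cell Ranger, Seurat and mm10. The matrices deposited by the authors hold unnormalized UMI counts for 32285 genes, 4183709 to 10130667 UMIs per library. Nuclei with at least 200 and under 4500 genes, under 10000 UMIs and under 5% mitochondrial UMIs were kept. No doublet caller was run. The upper limits on genes and UMIs and the rule's limits on other classes' genes were the only guards against doublets. The labels' treatment of aged mice with H151 or DMSO was assigned to no sample. The study's results name the controls differently from the sample titles, and the titles were followed.

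Members and lists were chosen with earlier results of these data known. Counts were summed per library and tested with edgeR 4.0.16 (TMM, filterByExpr, quasi-likelihood test, Benjamini-Hochberg adjustment, R 4.3.3). With 1 mouse per library, p-values measure the spread between libraries, in which mouse, sort and library preparation cannot be told apart. Shares were compared by exact permutation over libraries. Comparison classes were gated outside the rule by 3 or more UMIs of its fibroblast genes, its endothelial genes or Snap25, Syt1, Rbfox3 and Myt1l (neurons), or 4 or more of its microglial genes, with the rule's limits on the other trios. The scripts were tested on simulated counts. Named genes were the 7 markers, the 15 genes with the highest lowest-library ratio to other kept nuclei, the 10 with the smallest p between genotypes, the 4 tested members of each list with the highest mean CPM, and called interferon or MHC class I genes of the class comparisons. Some genes that this rule names are not reported here. Other genes were named after their values were seen. RefSeq locations (GRCm38.p6) matched 409 of 411 named genes. Alternatives used limma 3.58.1 (voom), DESeq2 1.42.0, other filters, gates, depths and libraries, and those that leave out astrocyte-gene nuclei were chosen after seeing the data. No antisense, paralogous or multi-mapping reads could be separated, so H2 genes and PYHIN genes such as Ifi203 and Ifi204 may share reads.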

Additional observations from a re-analysis of the deposited data

Results flagged for a closer look

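The genotype effect differed between mural nuclei and another class in 39 cases, tested in edgeR as the effect in mural minus that in the other class with library as a block, on the log2 scale, at adjusted p under 0.05. The cause of these differences was not tested.

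Against fibroblast-gated nuclei the difference was 2.50 for Nnat, -2.29 for Ccdc85a and -1.92 for Hdac9.

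Against microglia-gated nuclei, the interferon-linked and MHC class I genes were Ifi204 (-3.43), Ifi44 (-8.11), Ifitm3 (-2.14) and H2-D1 (-2.33). The schlafen gene Slfn5 differed by -3.50, the receptor tyrosine kinase gene Axl by -3.78, and Fyb, Ly86 and Arhgap15 by -4.98, -2.59 and -3.00. Further differences below 0 were Gria3 (-4.54), Rims1 (-9.52), Csmd1 (-2.83), Tenm2 (-4.02), Kcnh7 (-4.02), Unc5c (-5.36), Ptprt (-2.68), Meg3 (-2.20) and Snhg11 (-3.03). The neuronal marker genes, Meg3 among them, summed to 2033 CPM in the WT 1 members, against 378 to 719 CPM in the other libraries. Without the WT 1 astrocyte-gene nuclei the sum was 517 CPM, and the part of neuronal RNA in these differences was not tested. The remaining ones were Macrod2 (-2.61), Gm44148 (-1.80), Eda (-2.36), Slc35f1 (-3.85), Crym (-6.09), Gm15261 (-1.73), Sash1 (-1.57), Cgnl1 (-3.43), Sox6 (-1.89), F630028O10Rik (-9.14) and 9530026P05Rik (-1.66). Those above 0 were Gria1 (2.80), Erbb4 (1.82), Rgs7bp (2.25), Nhs (2.76), Sox2ot (2.66), Myo1d (2.04) and the clock gene Nr1d2 (1.81).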

How the results depend on the processing

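Of the alternatives tried on the 6 main results, 47 values kept their direction and size class, 21 moved and 1 reversed. For single genes the numbers were 443 kept, 18 newly past the threshold, 26 no longer past it and 1 reversed. The mural genotype test, with 0 calls, gave 53 without a filter on low counts (18094 genes tested) and 3 with nuclei holding markers of other brain cells left out (Ifitm3 and Ptgds among them). It gave 0 to 20 leaving out 1 library, and 0 to 7 when the astrocyte-gene nuclei were left out too (7 without R241E 1, 3 without R241E 2). A lone R241E library is assumed to vary like the WT libraries. The mouse number as a replicate block gave 6 calls (Ifitm3 and Apoe higher, Sgcd, Robo2, Csmd1 and Macrod2 lower). Mouse numbers are shared across genotypes, and the main test treated the mice as unpaired. Deviations from the group mean correlated by 0.136 (R241E 1 with WT 1) and 0.0514 (R241E 2 with WT 2). With 2 R241E libraries, the deviations of one mirror those of the other. These correlations therefore cannot show whether the mice are paired. Ifitm3 was called in 5 of 22 alternatives and Nr1d2 in 2 of 22. The smooth muscle share turned from -1.07 to 0.371 percentage points with at most 1 microglial UMI. The fibroblast comparison, with 3 calls, gave 5 with DESeq2 size factors, 30 without a filter, 10 without astrocyte-gene nuclei, and 1 to 23 leaving out 1 library. The microglia comparison, with 36 calls, gave 91 without a filter, 59 with at most 1 microglial UMI (31 shared), 59 without astrocyte-gene nuclei (26 shared), and 16 to 72 leaving out 1 library. Chic1, near 0, reversed to 0.000197 in limma-voom. The cause of these changes was not tested. Depth limits low genes most in WT 1, with 38 members.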
